A study of Homo sapiens with 8 samples.

Results

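The genes described here are 80 protein-coding genes whose read counts were higher in every side-population (SP) library than in every non-side-population (NSP) library of the J82 line. J82 is an established cell line from a human bladder cancer. They were chosen from the counts themselves. Levels are given as CPM, that is, counts divided by the total of their library and multiplied by 1000000. A gene was a member if it had at least 100 counts over the 8 libraries, if its lowest SP value exceeded its highest NSP value, and if its mean SP CPM was at least 2 times its mean NSP CPM. Of 57820 genes in the table, 6860 were protein-coding with at least 100 counts, and 92 of these met the rule. The 6 mitochondrially encoded genes among them and 6 further genes (FOXC1, ABCB1, NR4A3, ID3, GAS1 and PKD1L1) were set aside by the rule, which left 80 members, or 1.17% of the 6860. Because SP and NSP values chose the members, their levels are given as a description, without a test.

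SP cells are the fraction that holds little of the DNA dye Hoechst, which efflux pumps remove, and NSP cells are the stained remainder. Both fractions were sorted by flow cytometry from J82 grown in DMEM with 10% fetal bovine serum, and no drug treatment or genetic change is given for either group in the labels of these libraries. There were 4 SP and 4 NSP libraries, numbered 1 to 4 in each group, and all values below are listed in the order of replicates 1 to 4. Whether the replicates came from separate cultures or sorts is not stated, so the spread between them may be technical.

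Several of these genes belong to circuits that are well known as background. Cells that sense inflammatory cytokines or stress activate NF-kB, which induces cytokines such as IL6 and CXCL8 together with its own inhibitors NFKBIA and TNFAIP3, so that the response switches itself off. Many such genes give short-lived transcripts that carry AU-rich elements in the 3′ UTR. Other members act in matrix production, in growth factor signalling, at cell contacts and in the remodelling of actin by small GTPases.

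Which strand the counts hold limits every value below. The library kit, KAPA mRNA HyperPrep, keeps the strand of the RNA, the strand setting used in counting is not given in the sources used here, and the table itself shows far more counts on the strand opposite to abundant transcripts. MT-ND6, the 1 mitochondrial protein-coding gene on the minus strand, had 612560 counts per kb of exon over the 8 libraries, against 2843.6 to 15142 for the 12 on the plus strand, and in all 8 libraries it had more counts than those 12 together. The lncRNA ENSG00000269968, which lies wholly inside the exons of GAPDH on the other strand, had 464412 counts, against 13292 for GAPDH. Of 304 pairs of a protein-coding gene and a long noncoding RNA (lncRNA) with at least 90% of its exon bases inside that gene's exons on the other strand, the lncRNA had more counts per kb in 283 (93.1%), with a median ratio of 60.1. Such values are those of a table counted mainly on the opposite strand. The count of a member may therefore hold RNA from the other strand of its locus, a small part of its own mRNA, or both, and these cannot be told apart here. Below, a member's level is the number of reads assigned to that gene in the table and is not a measured level of its mRNA, and levels of different genes are not comparable as mRNA levels.

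Total counts ran from 1431823 to 1697218 in SP and from 1489033 to 2073526 in NSP. The paper's methods give a far larger number of raw reads per sample, so these totals hold only a small part of the reads. The reason was not tested. ABCB1, the drug efflux pump, stood at 31.8, 23.4, 33.6 and 32.1 CPM in SP and 1.52, 1.45, 7.88 and 4.70 CPM in NSP, with no overlap between the groups. Mitochondrially encoded genes took 3.46% to 7.57% of counts in SP and 1.65% to 4.01% in NSP, and their part in the members' values was not tested. With these genes left out of the totals, the rule gave 91 members, among them all 80. The marker lists carry the same limit of strand, so a marker at 0 does not show that its mRNA is absent. The 5 leukocyte genes summed to 46.5 to 94.0 CPM in SP and 19.4 to 57.1 CPM in NSP, mostly on CD14, while PTPRC and CD3E were at 0 in all libraries. Fibroblast markers summed to 8.38 to 23.6 CPM in SP and 7.08 to 13.0 CPM in NSP, with DCN at 0, and the 3 endothelial markers reached at most 0.698 CPM in SP and 1.21 CPM in NSP. The 8 urothelial markers summed to 3141.7 to 4737.2 CPM in SP and 3678.4 to 5327.9 CPM in NSP, mostly on KRT8. Of the others, UPK3A and KRT20 were at 0, and KRT5 and EPCAM held 1 and 3 counts over all libraries. The 4 mesenchymal markers summed to 268 to 489.6 CPM in SP and 486 to 831 CPM in NSP. The part of other cell types in the members' values was not tested, and in such bulk RNA fewer cells of a type and less RNA per cell cannot be told apart.

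The ratio of mean SP to mean NSP CPM ran from 2.01 to 5.28 over the members, with a median of 2.43. It was over 3 for 16 members and under 2.5 for 45. Together the members took 0.659% to 0.729% of the counts of an SP library and 0.249% to 0.337% of those of an NSP library. IGFBP5 alone held 45.7% of the members' 62749 counts, and without it the shares were 0.352% to 0.418% and 0.138% to 0.167%. The median member had 248 counts: 33 had under 200 counts over all libraries, 12 had 1000 or more, and 50 had at least 10 counts in each library. The lowest SP value was 1.01 to 2.62 times the highest NSP value, with a median of 1.29. Within same-numbered pairs of an SP and an NSP library, the median ratio was 2.50, 2.66, 2.50 and 2.37.

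**Figure D1:**
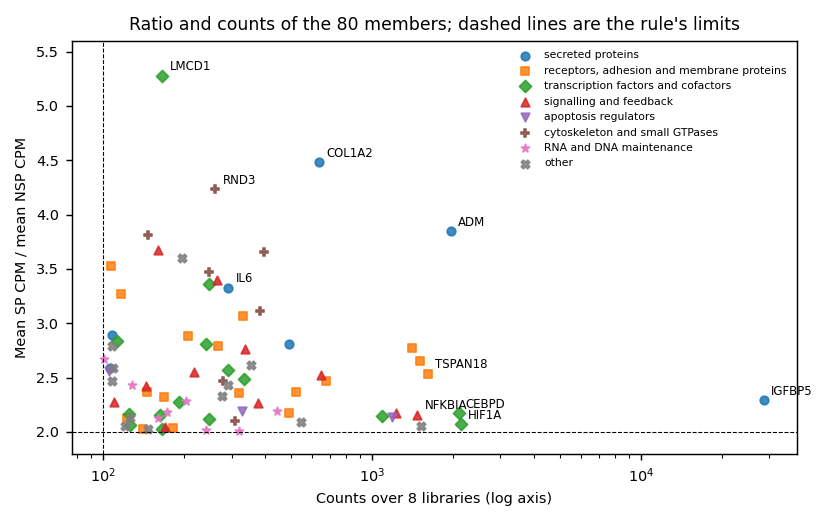
Each point is one of the 80 members, with its counts summed over the 8 libraries on the horizontal log axis, the ratio of mean SP to mean NSP CPM on the vertical axis and the role by symbol. The dashed lines mark the limits of 100 counts and a ratio of 2, and LMCD1, COL1A2, RND3 and ADM stand highest while IGFBP5 has by far the most counts.

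Roles were assigned after the members were known. There were 17 receptors, adhesion molecules and other membrane proteins, 15 transcription factors and cofactors and 11 signalling and feedback proteins. Another 8 were assigned to RNA and DNA maintenance. The rest were 7 secreted proteins, 7 proteins of the cytoskeleton and small GTPases, 3 regulators of apoptosis and 12 others. The median ratio was 3.47 for the cytoskeletal group, 2.90 for secreted proteins, 2.47 for membrane proteins, 2.43 for signalling proteins and 2.17 for transcription factors. Over all 80 members, the highest SP value was in replicate 1 for 15, in replicate 2 for 19, in replicate 3 for 23 and in replicate 4 for 23.

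**Figure D2:**
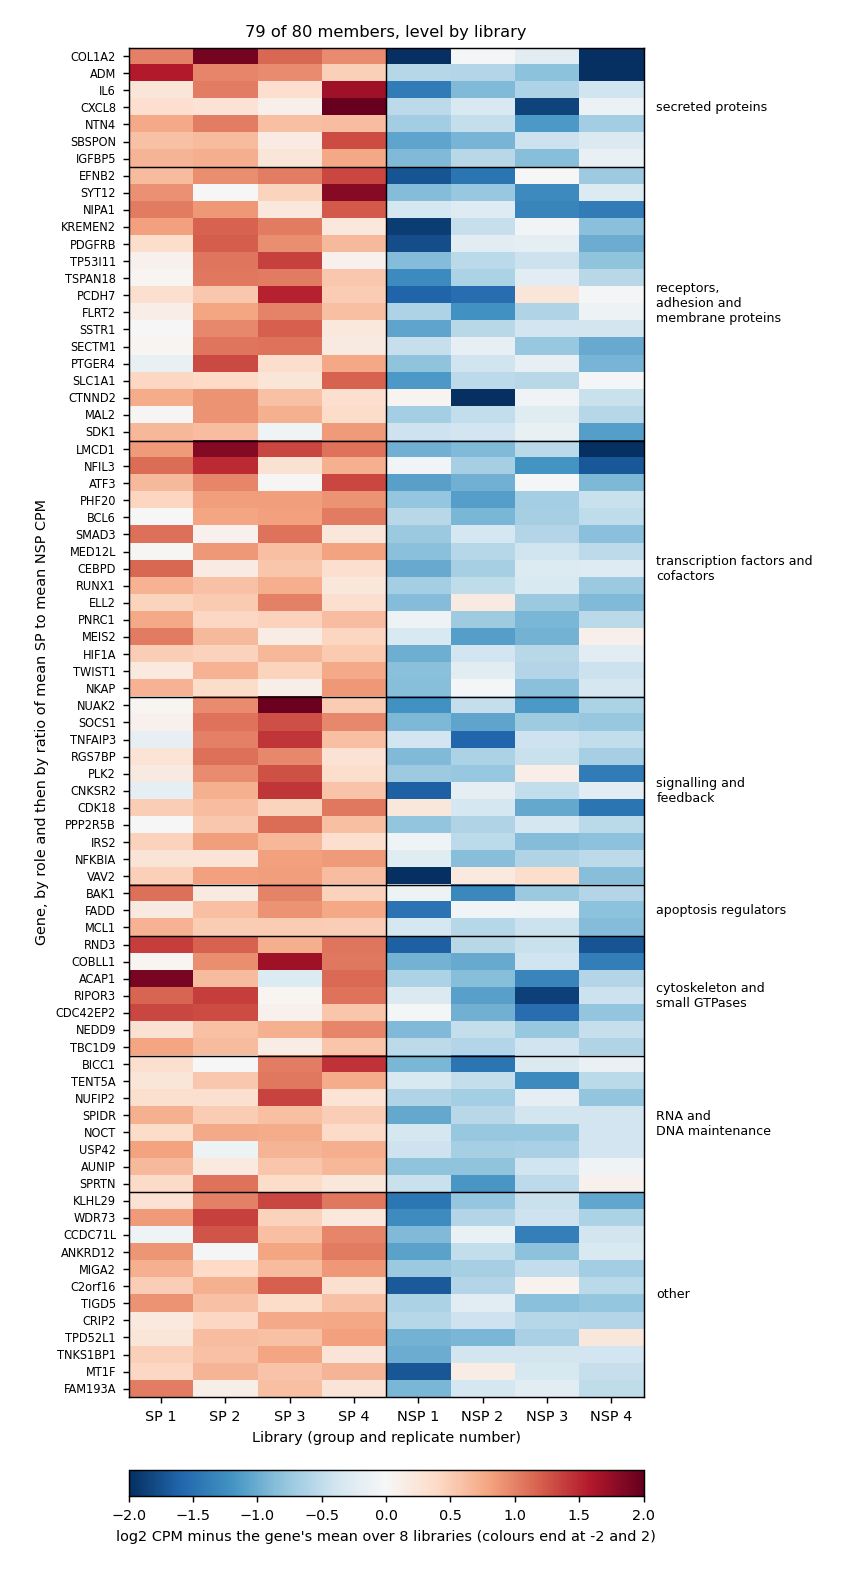
Rows are 79 of the 80 members, grouped by role and ordered by ratio, columns are the 8 libraries, and colour is log2 CPM minus the gene's mean over the libraries. All members shown are redder in the SP columns than in the NSP columns because the rule chose them so, and the darkest red tiles include SP replicate 4 for CXCL8, SP replicate 2 for COL1A2 and LMCD1, SP replicate 3 for NUAK2 and SP replicate 1 for ACAP1.

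Among secreted proteins, IGFBP5, a binding protein for insulin-like growth factors, had the most counts of all members, both in CPM and per kb of exon. It stood at 3289, 3386, 2414 and 3500.4 CPM in SP and 1109, 1400.0, 1137 and 1852 CPM in NSP. The group means were 3148 ± 496 and 1374 ± 344 CPM (SD, n = 4), a ratio of 2.29, and the lowest SP library, replicate 3, was 1.304 times the highest NSP library, replicate 4. COL1A2, the alpha-2 chain of type I collagen, stood at 67.0, 125, 73.7 and 64.3 CPM in SP and 6.07, 32.3, 28.5 and 6.72 CPM in NSP. SP replicate 2 was far above the other SP libraries, NSP replicates 1 and 4 held only 12 and 10 counts, and the ratio was 4.48. COL1A1, which encodes the partner chain of the same fibril and is no member, had 76 counts in all and means of 6.17 ± 4.24 and 4.97 ± 1.90 CPM (SD, n = 4).

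ADM encodes adrenomedullin, a vasodilator peptide induced by hypoxia in many cells, and had the third most counts per kb of exon in SP. Its values were 355, 233, 227 and 165 CPM in SP and 79.4, 78.6, 67.3 and 29.5 CPM in NSP. SP replicate 1 was highest, NSP replicate 4 was lowest, and the ratio was 3.85. The cytokine IL6 was measured at 22.1, 38.1, 23.6 and 60.8 CPM in SP and 7.08, 10.1, 12.1 and 14.1 CPM in NSP, a ratio of 3.33. The chemokine CXCL8, which attracts neutrophils, was measured at 8.29, 8.03, 7.07 and 27.9 CPM in SP and 4.55, 5.30, 1.82 and 6.04 CPM in NSP. SP replicate 4 gave the highest value for both cytokines. For CXCL8 it held 40 counts where the other SP libraries held 12 each, and the ratio was 2.90. Without that library the ratio was 1.76, below the limit of the rule. NTN4, a laminin-related netrin, had a ratio of 2.81, and SBSPON, a small secreted protein with a somatomedin B domain and among the lowest members in counts, stood at 11.1, 11.4, 8.25 and 18.2 CPM in SP and 3.54, 3.86, 5.46 and 6.04 CPM in NSP, without overlap and with SP replicate 4 again the highest.

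Among the membrane proteins with more than 1000 counts, TSPAN18, a tetraspanin, had 113, 227, 223 and 158 CPM in SP and 45.0, 70.4, 94.6 and 74.5 CPM in NSP, and TP53I11, named for its induction by p53, had 106, 208, 256 and 105 CPM in SP and 54.6, 68.5, 74.0 and 57.1 CPM in NSP. For both genes SP replicates 2 and 3 were highest, and the groups did not overlap. Their ratios were 2.53 and 2.66.

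The largest ratio among membrane proteins was 3.53, for EFNB2, a transmembrane ligand of Eph receptors, with 10.4, 12.7, 13.6 and 16.8 CPM in SP and 2.02, 2.41, 6.67 and 4.03 CPM in NSP. It is a low gene with 107 counts, with 4 to 11 counts in each NSP library. PDGFRB, the receptor tyrosine kinase for platelet-derived growth factor, had 22.1, 40.1, 33.0 and 27.2 CPM in SP and 5.06, 14.9, 15.2 and 8.73 CPM in NSP, and its lowest libraries were replicates 1 and 4 in NSP. KREMEN2, a receptor for the Wnt inhibitor Dickkopf, had 23.5, 30.1, 27.1 and 15.4 CPM in SP and 3.54, 9.65, 12.7 and 7.39 CPM in NSP. Neither gene's groups overlapped, and the ratios were 2.79 and 2.88. Receptors for diffusible signals also included SSTR1 for somatostatin (ratio 2.36) and PTGER4 for prostaglandin E2 (ratio 2.32). PTGER4 was the member with the smallest gap between the groups, at 10.4, 28.8, 14.7 and 19.6 CPM in SP and 6.58, 8.68, 10.3 and 6.04 CPM in NSP, with SP replicate 1 at 1.01 times NSP replicate 3. Adhesion molecules were PCDH7, FLRT2 and SDK1, with ratios of 2.47, 2.37 and 2.02, and transporters were SLC1A1 for glutamate and NIPA1 for magnesium, with ratios of 2.17 and 3.07. SDK1 lay near the limit of the rule, at 15.9, 15.4, 9.43 and 18.2 CPM in SP and 7.59, 7.72, 9.09 and 4.70 CPM in NSP, and MAL2, a protein of transcytosis, at 13.1, 24.1, 21.2 and 16.8 CPM in SP and 8.10, 9.16, 10.9 and 8.73 CPM in NSP. Their SP and NSP values did not overlap, and both ratios were close to 2 (2.02 and 2.04). SYT12, SECTM1 and CTNND2 made up the rest, with ratios of 3.27, 2.36 and 2.13.

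LMCD1, a LIM domain cofactor that binds GATA factors, had the largest ratio of all members, 5.28, and the widest gap between the groups. It stood at 15.9, 31.4, 22.4 and 18.9 CPM in SP and 4.55, 4.82, 6.06 and 1.34 CPM in NSP, and NSP replicate 4 held 2 counts. NFIL3, a basic leucine zipper repressor, had 33.2, 42.8, 18.9 and 25.1 CPM in SP and 14.7, 9.65, 6.67 and 4.70 CPM in NSP and a ratio of 3.36. CEBPD, a C/EBP factor of the acute phase response, had the second most counts per kb of exon among members, with 331, 167, 219 and 187 CPM in SP and 73.9, 93.6, 124 and 125 CPM in NSP. SP replicate 1 was the highest CEBPD library by far, and the ratio was 2.17. HIF1A, the oxygen-regulated subunit of hypoxia-inducible factor, varied little between SP libraries, with 218, 214, 245 and 223 CPM in SP and 78.4, 119, 105 and 132 CPM in NSP. The lowest SP library was 1.62 times the highest NSP library, and the group means were 225 ± 13.5 and 109 ± 23.1 CPM (SD, n = 4), a ratio of 2.07.

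ATF3, a stress-induced basic leucine zipper factor, had 11.7, 14.7, 7.66 and 18.9 CPM in SP and 3.54, 3.86, 7.27 and 4.03 CPM in NSP. SP replicate 3 lay only 1.05 times above NSP replicate 3, a difference of under 1 CPM, while the ratio of means was 2.83. TWIST1, a basic helix-loop-helix factor of mesenchymal cells, had 10.4, 14.7, 12.4 and 15.4 CPM in SP and 5.06, 7.72, 6.06 and 6.72 CPM in NSP, a ratio of 2.07 without overlap. The other transcription factors were BCL6, SMAD3, RUNX1 and MEIS2, with ratios of 2.57, 2.49, 2.17 and 2.12. PHF20, ELL2, MED12L, PNRC1 and NKAP, which act with chromatin, the elongation machinery or other factors, ranged from 2.03 for NKAP to 2.81 for PHF20.

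The signalling group held several inhibitors that are induced by the pathways they restrain. SOCS1, a suppressor of JAK and STAT signalling, had 18.0, 36.1, 41.2 and 32.8 CPM in SP and 9.11, 8.20, 10.3 and 10.1 CPM in NSP. All NSP libraries lay within 8.20 to 10.3 CPM, SP replicate 1 was the lowest SP library, and the ratio was 3.40. TNFAIP3, a ubiquitin-editing enzyme known as A20, had 19.3, 43.5, 58.3 and 32.8 CPM in SP and 16.7, 7.23, 16.4 and 15.4 CPM in NSP, and NFKBIA, which holds NF-kB in the cytoplasm, had 125, 126, 185 and 189 CPM in SP and 89.1, 58.4, 69.1 and 73.2 CPM in NSP. SP replicate 1 was the lowest SP library for both, 1.16 and 1.40 times the highest NSP library, and the ratios were 2.76 and 2.16. IRS2, an adaptor of insulin and growth factor receptors, had 119, 153, 136 and 109 CPM in SP and 81.5, 59.8, 47.3 and 49.0 CPM in NSP, a ratio of 2.18 without overlap.

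NUAK2, a kinase related to AMPK, had 9.67, 18.1, 36.5 and 13.3 CPM in SP and 4.05, 6.75, 4.24 and 6.04 CPM in NSP. SP replicate 3 was well above the other SP libraries, and the ratio was 3.68. PLK2, a polo-like kinase and a target of p53, had 48.4, 81.6, 103 and 54.5 CPM in SP and 25.8, 25.1, 46.7 and 16.1 CPM in NSP, and CNKSR2, a scaffold of Ras signalling, had 8.29, 15.4, 25.3 and 14.0 CPM in SP and 3.04, 8.20, 6.67 and 8.06 CPM in NSP. In both, SP replicate 1 came within 1.04 times of the highest NSP library, and SP replicate 3 was highest. RGS7BP, PPP2R5B, CDK18 and VAV2 had ratios of 2.55, 2.26, 2.27 and 2.05.

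**Figure D3:**
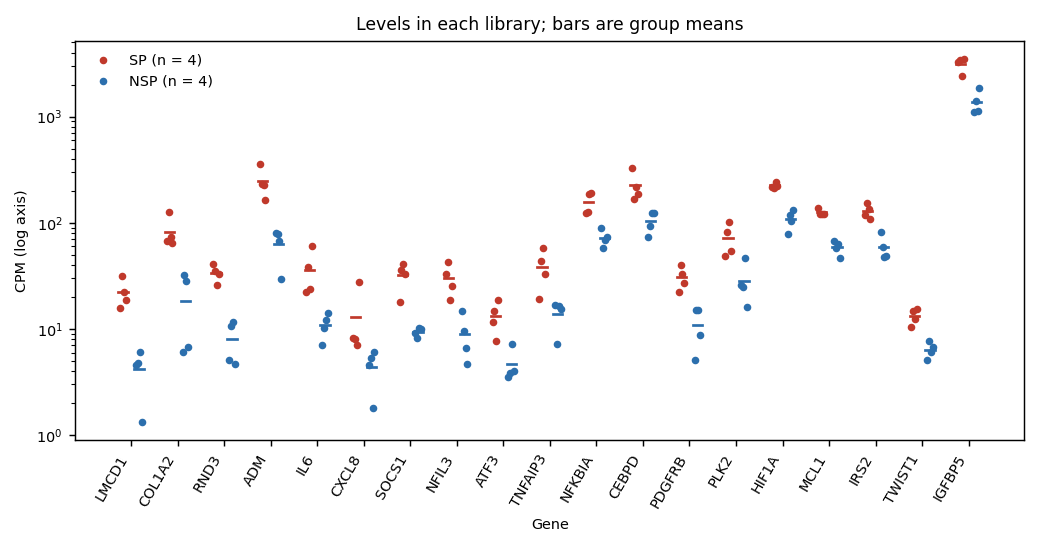
Points are the CPM of 19 members in each SP library (red, n = 4) and NSP library (blue, n = 4) on a log axis, and bars are group means. In each gene the lowest red point lies above the highest blue point, by the smallest margin for PLK2 and ATF3 (1.04 and 1.05 times) and by the largest for LMCD1 (2.62 times).

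Both an inhibitor and effectors of apoptosis were members. MCL1, a BCL2 relative that protects mitochondria, had 139, 122, 121 and 121 CPM in SP and 67.3, 57.4, 63.7 and 47.0 CPM in NSP. BAK1, which opens the outer mitochondrial membrane, had 15.2, 8.03, 14.1 and 9.78 CPM in SP and 6.58, 2.89, 4.24 and 4.70 CPM in NSP, and FADD, the adaptor of death receptors, had 25.6, 34.1, 41.8 and 38.4 CPM in SP and 8.10, 21.7, 21.2 and 12.8 CPM in NSP. The groups did not overlap for any of these genes, and the ratios were 2.14, 2.56 and 2.19. BAK1 was a low gene with 105 counts.

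RND3, an atypical small GTPase that acts on the actin cytoskeleton, had the third largest ratio of all members, 4.23, with 40.8, 35.5, 25.9 and 32.8 CPM in SP and 5.06, 10.6, 11.5 and 4.70 CPM in NSP. SP replicate 3, the lowest, was still 2.25 times NSP replicate 3, the highest. ACAP1, a GTPase-activating protein for ARF6, had 90.5, 37.5, 20.03 and 53.1 CPM in SP and 15.7, 13.5, 9.70 and 16.1 CPM in NSP, and COBLL1, a relative of the actin nucleator cordon-bleu, had 8.98, 16.7, 28.3 and 18.2 CPM in SP and 4.55, 4.34, 6.67 and 3.36 CPM in NSP. SP replicate 3 was the lowest SP library for ACAP1 and the highest for COBLL1, and SP replicate 1 the reverse, so these members of like ratio (3.66 and 3.81) were ordered differently over the same libraries. RIPOR3 had 34.5, 40.1, 15.9 and 32.8 CPM in SP and 12.6, 7.23, 4.24 and 11.4 CPM in NSP, with a ratio of 3.47 and SP replicate 3 again the lowest SP library. CDC42EP2, an effector of CDC42, NEDD9, a scaffold at focal adhesions, and TBC1D9, with the domain of Rab GTPase-activating proteins, had ratios of 3.11, 2.47 and 2.10.

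In the group assigned to RNA and DNA maintenance, NOCT and TENT5A are enzymes and BICC1 and NUFIP2 bind RNA. The ratios of these genes were 2.19, 2.43, 2.68 and 2.29. BICC1 had the fewest counts of all members, 101, and stood at 8.29, 6.69, 13.6 and 18.2 CPM in SP and 3.54, 2.41, 5.46 and 6.04 CPM in NSP. SPIDR, a scaffold of homologous recombination, had 52.5, 45.5, 48.3 and 44.7 CPM in SP and 15.7, 21.7, 24.9 and 24.8 CPM in NSP, and its SP libraries differed little. SPRTN, a protease that clears DNA-protein crosslinks, had 29.7, 48.2, 29.5 and 26.5 CPM in SP and 16.7, 10.1, 15.8 and 24.2 CPM in NSP, and AUNIP, a partner of Aurora A at centrosomes, had 27.6, 20.1, 25.9 and 27.9 CPM in SP and 10.1, 10.1, 13.3 and 16.8 CPM in NSP. SP replicate 2 was the highest SP library for SPRTN and the lowest for AUNIP. The ratios were 2.19, 2.01 and 2.02, and USP42, a deubiquitinase, had 2.13.

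Among the others, KLHL29, a kelch-like protein, had 15.2, 24.7, 31.2 and 25.8 CPM in SP and 4.55, 7.23, 9.09 and 6.04 CPM in NSP, the largest ratio of this group at 3.60. TNKS1BP1, a tankyrase-binding protein, had 151, 164, 189 and 131 CPM in SP and 55.2, 84.4, 84.9 and 83.9 CPM in NSP, and 3 of its NSP libraries lay between 83.9 and 84.9 CPM with replicate 1 below them. Its ratio was 2.06. TPD52L1, of the tumour protein D52 family, had 46.3, 59.5, 58.3 and 69.1 CPM in SP and 20.2, 20.7, 24.9 and 45.7 CPM in NSP, with SP replicate 1 at 1.01 times NSP replicate 4. TIGD5, derived from a transposase, had 36.6, 29.4, 25.3 and 29.3 CPM in SP and 12.6, 16.9, 10.9 and 11.4 CPM in NSP, without overlap. WDR73, FAM193A, CCDC71L, ANKRD12, MIGA2, C2orf16, CRIP2 and MT1F had ratios from 2.03 for FAM193A to 2.79 for WDR73. MT1F, a metallothionein, has near-identical relatives on the same chromosome whose reads may be split between them, so its value is uncertain.

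The members just inside each limit of the rule were compared with the genes just outside it. By ratio, SPRTN, AUNIP and SDK1 (2.01, 2.02 and 2.02) were the last members, and DNAJC4 and DAGLB (1.996 and 1.986) were among the first genes left out. DNAJC4 stood at 46.3, 31.4, 42.4 and 41.9 CPM in SP and 27.3, 13.5, 18.2 and 22.2 CPM in NSP and DAGLB at 31.8, 25.4, 23.0 and 18.2 CPM in SP and 13.2, 7.23, 16.4 and 12.8 CPM in NSP, without overlap. By counts, BICC1, BAK1 and SBSPON were the last members with 101, 105 and 106, and CCM2L, ZNF408 and PARD6B fell short with 98, 97 and 96. CCM2L stood at 4.84, 16.7, 16.5 and 16.1 CPM in SP and 0.506, 3.38, 1.82 and 2.69 CPM in NSP, a ratio of 6.45 that is larger than that of any member. ZNF408 stood at 11.7, 9.36, 8.25 and 13.3 CPM in SP and 5.06, 5.30, 1.82 and 6.04 CPM in NSP and PARD6B at 7.60, 10.7, 13.0 and 8.38 CPM in SP and 5.06, 3.38, 7.27 and 4.03 CPM in NSP, both with ratios over 2. By the gap between groups, PTGER4, CNKSR2 and TPD52L1 were the last members, with the lowest SP value 1.01 times the highest NSP value, and AGA, FEM1B and RAB20 missed with 0.991, 0.983 and 0.981 times. AGA stood at 12.4, 15.4, 15.9 and 9.08 CPM in SP and 5.57, 9.16, 4.85 and 4.70 CPM in NSP, FEM1B at 49.7, 37.5, 16.5 and 23.0 CPM in SP and 10.1, 12.5, 10.3 and 16.8 CPM in NSP and RAB20 at 24.9, 10.0, 9.43 and 18.2 CPM in SP and 9.61, 6.75, 4.85 and 4.70 CPM in NSP, so that in each a single SP library lay below a single NSP library. In all, 370 protein-coding genes failed the ratio alone, 145 the counts alone and 36 the gap alone. The mirrored rule gave 55 protein-coding genes higher in NSP.

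In a fit of edgeR's quasi-likelihood test across all 9309 genes with enough counts, which include all 80 members, 61 of the 80 members had a fold change over 1.3 with a Benjamini-Hochberg adjusted p below 0.05, against 1.63% of all genes tested that were called higher in SP. Since the rule used the same contrast, this count describes the members and supports nothing. The members' median log2 fold change was 1.23 (from 0.94 to 2.30), against 0.01 over all genes tested. Groups without overlap and SP on top were found for 6.05% of all genes tested and for 6.73% of protein-coding genes with at least 100 counts, and the members are among these. The count fell to 38 without SP replicate 2 and to 33 without NSP replicate 2, and it was 80 when the replicate number was added as a block, where 5.89% of all genes tested were called higher.

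Gene lists of known circuits set the members beside genes that the rule did not choose. Of the NF-kB response list, 13 genes were tested and 4 were members (IL6, CXCL8, TNFAIP3 and NFKBIA). The other 9, among them the transcription factor subunits NFKB1, NFKB2 and RELB, had a median log2 fold change of 0.37, and 8 of them had a positive one. None of the 9 was called higher by edgeR or by DESeq2, and 1 was higher at an unadjusted p under 0.05. ICAM1, an adhesion molecule, was the nearest to a call, with 92.8 ± 8.06 CPM in SP and 60.5 ± 14.0 CPM in NSP (SD, n = 4), a log2 fold change of 0.56 and an edgeR adjusted p of 0.0905. With the replicate block 1 of the 9, ICAM1, was called higher and none lower, against 5.89% and 7.0% of all genes tested. The 4 members were called too, like all 80 members. Since the rule used this contrast, they are left out of this count.

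Of 28 tested immediate early genes, ATF3 was the member. Of the other 27, 23 had a positive log2 fold change, with a median of 0.32, and 1, NR4A3, which the rule sets aside, was called higher by edgeR. With the replicate block 8 of the other 27 were called higher and 1, FOSL1, lower, against 5.89% and 7.0% of all genes tested. The 8 include NR4A3, and ATF3 was called higher as well. Since ATF3 and NR4A3 both met the rule, which used this contrast, their calls support nothing. The mesenchymal list held 3 members, COL1A2, PDGFRB and TWIST1, beside genes that were lower in SP. Of its other 13 tested genes, none was called higher by edgeR or DESeq2 or had a positive change at an unadjusted p under 0.05, and 3 matrix genes were called lower. These were FN1, which encodes fibronectin (log2 fold change −1.25, edgeR adjusted p = 0.000863), COL6A1, which encodes a chain of type VI collagen (−1.64, adjusted p = 0.0445), and POSTN, which encodes periostin (−1.73, adjusted p = 0.000934). With the replicate block 5 of the 13 were called lower and none higher. Of the p53 target list, PLK2 was a member, and none of the other 14 tested genes was called higher by edgeR or DESeq2 or had a positive change at an unadjusted p under 0.05. Of those 14, 5 had a positive log2 fold change, the median was −0.15, and with the replicate block 4 were called lower (BBC3, CDKN1A, GADD45A and GDF15) and none higher. Each list was written with earlier results of these libraries known.

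To show the control region of the 4 NF-kB response members, the 250 bases before the start of each gene are given 5′ to 3′ on the gene's strand, from RefSeq on GRCh38.p14. Capitals mark each match to the kappa B letters GGNNNTTCC on either strand. The IL6 promoter is chr7:22726950-22727199 on the plus strand, that of CXCL8 is chr4:73740319-73740568 on the plus strand, that of NFKBIA is chr14:35404750-35404999 on the minus strand and that of TNFAIP3 is chr6:137867009-137867258 on the plus strand.
IL6: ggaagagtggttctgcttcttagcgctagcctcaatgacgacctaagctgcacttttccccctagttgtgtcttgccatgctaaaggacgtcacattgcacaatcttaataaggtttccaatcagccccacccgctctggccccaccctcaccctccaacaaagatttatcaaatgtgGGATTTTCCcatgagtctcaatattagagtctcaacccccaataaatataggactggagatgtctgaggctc
CXCL8: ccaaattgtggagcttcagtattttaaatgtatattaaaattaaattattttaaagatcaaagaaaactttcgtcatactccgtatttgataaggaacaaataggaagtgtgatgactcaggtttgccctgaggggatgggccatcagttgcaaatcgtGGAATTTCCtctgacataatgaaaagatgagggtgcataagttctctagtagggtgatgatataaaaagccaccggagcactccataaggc
NFKBIA: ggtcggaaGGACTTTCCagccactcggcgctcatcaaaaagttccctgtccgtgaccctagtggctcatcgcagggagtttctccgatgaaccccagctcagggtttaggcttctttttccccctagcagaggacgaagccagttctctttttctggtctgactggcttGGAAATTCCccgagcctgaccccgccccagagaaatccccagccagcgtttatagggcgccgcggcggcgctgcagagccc
TNFAIP3: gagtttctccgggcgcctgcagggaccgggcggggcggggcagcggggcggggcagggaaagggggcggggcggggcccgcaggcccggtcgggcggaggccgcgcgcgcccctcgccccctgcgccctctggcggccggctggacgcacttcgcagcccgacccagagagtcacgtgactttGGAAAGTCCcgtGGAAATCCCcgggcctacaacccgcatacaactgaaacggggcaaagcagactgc
The match began 72 bases before the start in IL6 and 91 before it in CXCL8. NFKBIA had matches 242 and 81 bases before its start, and TNFAIP3 had neighbouring matches 67 and 55 bases before its start, both on the minus strand. A match is a run of letters and not a measured site.

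A RefSeq promoter of 300 bases (250 before to 50 after the start) was found for 59 of the 80 members, and motifs were counted on both strands. The kappa B letters were in 17 member promoters (28.8%), in 23.3% of the promoters of protein-coding genes with at least 100 counts and in 20.1% of all 27305 promoters. TATAAA was in 10 member promoters (16.9%), against 5.44% and 11.95%. These 10 were RND3, ADM, NUAK2, EFNB2, RIPOR3, CXCL8, TENT5A, NOCT, NFKBIA and NKAP, which include 5 of the 12 members with the largest ratios. GGGCGG was in 38 (64.4%), against 73.5% and 44.6%, and the median GC content of member promoters was 63.0%, against 66.3% and 58.3%. CACGTG was in 7 (11.9%), against 11.2% and 7.43%, and TGANTCA in 2 (3.39%), CXCL8 and FADD, against 4.34% and 7.76%. AAGGTCA was in 1 (1.69%), ATF3, against 2.01% and 3.97%. The forkhead letters GTAAACA were in none of the 59, against 2.17% and 3.41%. At shares this low few matches are likely in 59 promoters, so their absence says little about the members. No test of these shares was made.

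The 3′ UTRs of members more often held TATTTAT, the core of an AU-rich element, than those of the background set. In the annotated main transcript, 44 of 80 members (55.0%) held it and 29 (36.2%) held it 2 or more times, against 30.3% and 11.7% of protein-coding genes with at least 100 counts, which include the members. Members also had longer 3′ UTRs, with a median of 1645.5 bases against 1167. Within classes of 3′ UTR length, the share was 33.3% of 24 members and 12.4% of all such genes under 1000 bases, 56.5% of 23 and 29.3% between 1000 and 2000 bases, 57.1% of 21 and 48.2% between 2000 and 4000 bases, and 91.7% of 12 and 73.5% above that. FLRT2 held 15 copies, COBLL1 6, MED12L 5, and CXCL8, NUAK2 and ELL2 4 each. IL6 and MCL1 held 3 each, while ADM, COL1A2, CEBPD and SOCS1 held none. Member 3′ UTRs were also richer in A and T, with a median of 60.045% against 54.244% in the background set. By class the medians were 54.191% against 50.499% under 1000 bases and 62.523% against 54.609% between 1000 and 2000 bases. They were 61.235% against 57.389% between 2000 and 4000 bases and 60.13% against 58.492% above that. TATTTAT holds only A and T, and the part of AT content in its shares was not tested. The TATTTAT feature was chosen after the members were known, and no test was made. It describes the annotated mRNA, which the counts of a member may not hold.

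**Figure D4:**
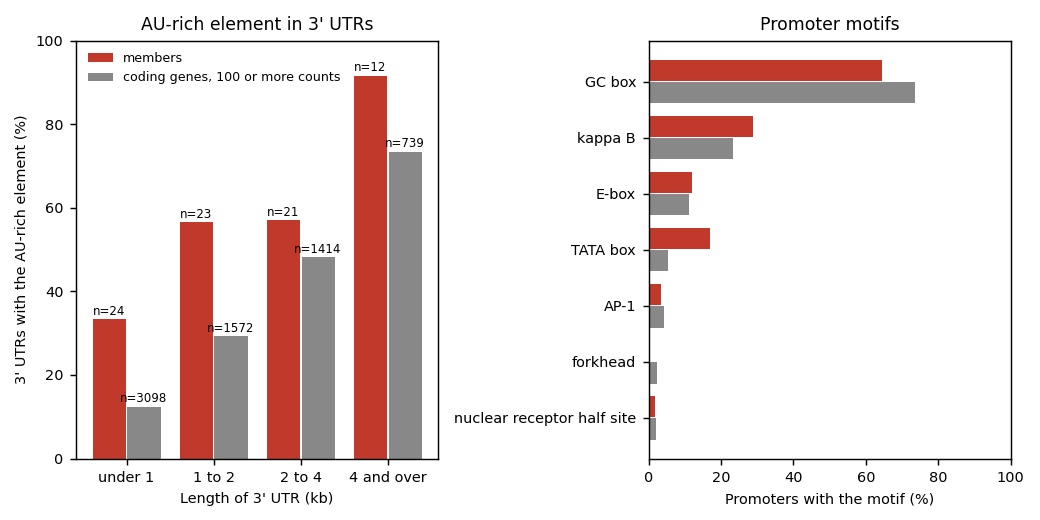
Left, the percent of 3′ UTRs with TATTTAT by length class, for members (red) and for protein-coding genes with at least 100 counts (grey), with the number of genes above each bar. Right, the percent of 300-base promoters with the letters of each motif on either strand, for the same sets (59 member promoters). The letters TATAAA, labelled TATA box, are more frequent in members (16.9% against 5.44%). The forkhead letters are rare in the grey set (2.17%) and are in no member promoter. A match is a run of letters and not a measured site.

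By position, the members were spread over 21 chromosomes. Chromosome 11 held 8 and chromosome 1 held 7, or 1.76% and 1.03% of their protein-coding genes with at least 100 counts. Over all chromosomes the share was 1.17%, and it was largest on chromosome 4, with 5 of 180 (2.78%). Pairs of members lay within 150 kb of each other at only 2 loci. TP53I11 (chromosome 11, 44907454 to 44972857, minus strand) and TSPAN18 (44748015 to 44953974, plus strand) share 76 bases of exon on opposite strands of GRCh37. SPIDR (chromosome 8, 48173470 to 48648868, plus strand) and CEBPD (48649475 to 48650726, minus strand) end 607 bases apart, tail to tail. Both TP53I11 and TSPAN18 had their highest SP values in replicates 2 and 3, though not in the same order, while SPIDR was nearly level over the SP libraries and CEBPD was highest in replicate 1.

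Genes with an exon on the other strand across an exon of a member, here called partners, show the limit of strand at the members themselves. Of the 80 members, 34 (42.5%) had a partner in the annotation, against 52.99% of protein-coding genes with at least 100 counts, in a comparison without a test. The other 46 had none, and the median ratio was 2.40 with a partner and 2.50 without. The 34 members formed 45 pairs, 35 of them with a partner in the table. Since reads of a member's mRNA may be counted under its partner, the partners' values are not independent of those the rule used, and they are given as a description that supports nothing.

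Of 14 partners that were in the fit and were no members, 6 were called higher in SP and none lower by edgeR, against a background of 1.63% and 2.03% of all genes tested. In DESeq2 the counts were 6 and 0 as well, and at an unadjusted p under 0.05 they were 8 and 0. The median log2 fold change was 0.56, and 13 of the 14 were positive. By type, 5 of 7 lncRNAs and 1 of 6 protein-coding genes were called. Per kb of exon, each of the 7 lncRNAs held more counts than its member. The count was 3 without SP replicate 2 or SP replicate 4 and 2 without NSP replicate 2, and with the replicate block 7 were called higher and none lower, against 5.89% and 7.0% of all genes tested.

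HIF1A (chromosome 14, 62162231 to 62214977, plus strand) faces the lncRNA HIF1A-AS1 (62147441 to 62162610, minus strand). The genes overlap head to head, with starts 379 bases apart, and share 133 bases of exon. HIF1A-AS1 stood at 1036, 1166, 1183 and 916 CPM in SP and 485, 647, 658 and 653 CPM in NSP, without overlap. Per kb of exon it had 10511 counts over the 8 libraries, against 415.8 for HIF1A. IL6 (chromosome 7, 22765503 to 22771621, plus strand) faces IL6-AS1 (22765014 to 22767239, minus strand) over 428 bases of exon. IL6-AS1 stood at 227, 319, 133 and 368 CPM in SP and 55.2, 119, 90.3 and 110.1 CPM in NSP. SP replicate 4 was highest, as for IL6 itself, and the groups did not overlap.

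MAL2-AS1, across 202 bases of exon from MAL2, stood at 142, 185, 154 and 158 CPM in SP and 70.8, 101, 127 and 69.8 CPM in NSP, without overlap. A lncRNA inside FADD's exons, ENSG00000254721, which shares all of its 1011 bases with FADD, stood at 359.9, 502, 475 and 431 CPM in SP and 148, 346, 415 and 296 CPM in NSP, and NSP replicate 3 lay above SP replicate 1. The lncRNA lies across 59.2% of FADD's exon length and had 4777 counts per kb of exon, against 192.6 for FADD. Which of the genes of such a pair gave the reads under either name cannot be told apart.

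The other called partners were chosen for mention after their values were seen. HDDC2, an HD domain protein across from TPD52L1, stood at 106, 112, 128 and 154 CPM in SP and 43.5, 50.6, 77.6 and 90.7 CPM in NSP. The lncRNA ENSG00000247925, across 53 bases of exon from NEDD9, stood at 67.0, 104, 60.7 and 147 CPM in SP and 30.4, 34.7, 34.6 and 49.7 CPM in NSP. The lncRNA ENSG00000228804, across 171 bases from BCL6, stood at 47.7, 82.9, 60.1 and 90.8 CPM in SP and 33.9, 20.3, 36.98 and 37.6 CPM in NSP. In all of these the SP libraries lay above the NSP libraries.

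In other well-counted partners the groups overlapped. PKMYT1, a kinase that inhibits CDK1, meets KREMEN2 tail to tail over 357 bases of exon and stood at 499, 757, 749 and 450.5 CPM in SP and 455, 628, 691 and 529 CPM in NSP. EEF1D, a translation elongation factor subunit near the start of TIGD5, stood at 256, 231, 272 and 233 CPM in SP and 229, 233, 187 and 194 CPM in NSP. ADAMTSL4, which meets MCL1 tail to tail over 43 bases, stood at 99.5, 146, 137 and 124 CPM in SP and 96.6, 121, 122 and 107 CPM in NSP.

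**Figure D5:**
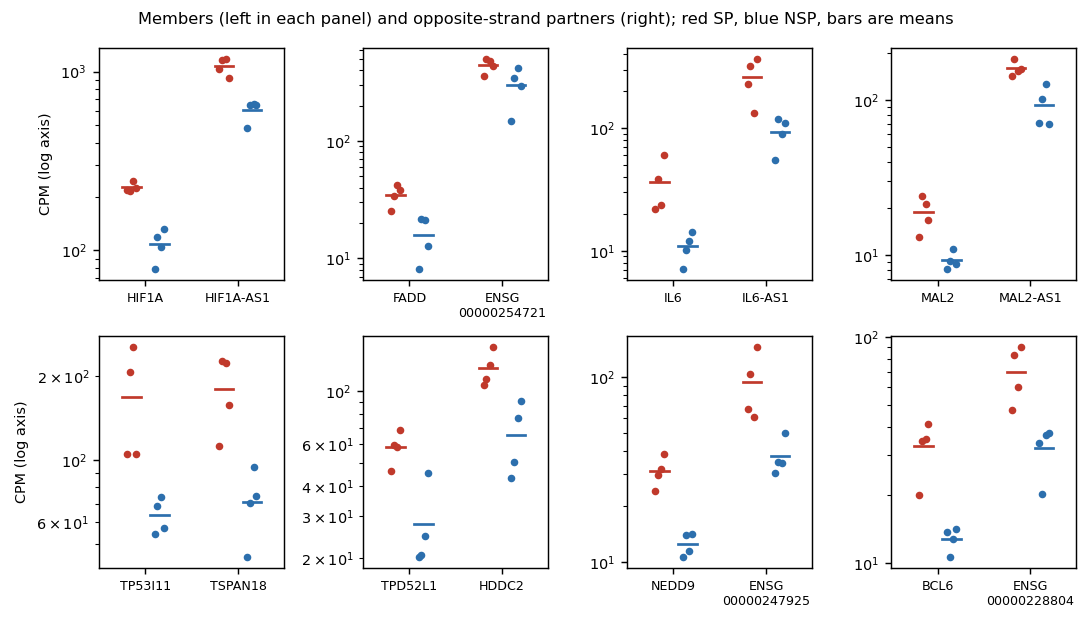
Each panel gives the CPM (log axis) of a member on the left and of its opposite-strand partner on the right, in SP (red, n = 4) and NSP (blue, n = 4) libraries, with bars for means. The groups are separate for all partners shown except ENSG00000254721 across from FADD, and TP53I11 and TSPAN18 are both members.

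Genes beside the members, within 150 kb on either strand and with no exon across from them, were examined in the same fit. Of 175 such tested genes, 2 were called higher (1.14%) and 2 lower (1.14%), against 1.63% and 2.03% of all genes tested, and the median log2 fold change was 0.09. The higher ones were PRKCH, a protein kinase C 144537 bases from HIF1A (8.52 ± 1.15 CPM in SP and 3.27 ± 1.09 in NSP, SD, n = 4, log2 fold change 1.33, edgeR adjusted p = 0.0401), and the lncRNA ENSG00000273472, on the other strand 25 bases from TBC1D9 (38.1 ± 4.16 and 19.7 ± 2.70 CPM, log2 fold change 0.91, edgeR adjusted p = 0.0218). The lower ones were CD82-AS1, 121128 bases from TSPAN18, and RTN4RL2, a receptor relative 135575 bases from TNKS1BP1, with log2 fold changes of −1.61 and −1.78 (edgeR adjusted p = 0.0419 and 0.0402). With the replicate block 13 of the 175 (7.43%) were called higher and 7 (4.0%) lower, against 5.89% and 7.0% of all genes tested.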

How the data were processed

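The authors built mRNA libraries, sequenced single-end reads, aligned them with STAR to hg19 and counted them per gene with featureCounts from Subread; the strand setting is not given in the sources used here. The strand was examined from mitochondrial genes and from lncRNAs with at least 90% of their exon bases inside the exons of a coding gene transcribed oppositely, in pairs with at least 100 counts, and most counts lay opposite to abundant transcripts. The deposited values are these raw counts, without normalization, for 57820 genes. Each of the 8 columns was assigned to SP or NSP by its name, and 0 columns of other samples were used.

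Symbols, gene types and positions were joined by unversioned identifier from GENCODE v44 mapped to GRCh37, which covered 55538 genes (96.1%); genes without an entry held 4.06% of counts. The authors' gene models were an earlier version, so exon partners and exon lengths follow the newer models. Counts per kb of exon therefore divide counts on the earlier models by lengths of the newer ones. CPM were computed from column totals in Python 3.11.15 with pandas 2.3.3. Exon partners share at least 1 base of exon on opposite strands. The members, the gene lists and the tests were chosen with earlier results of these data known, and the roles were assigned after the members were seen.

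The quasi-likelihood test of edgeR 4.0.16 (R 4.3.3) was run across the whole table with TMM scaling and no covariate, after filterByExpr (min.count 10, min.total.count 15). P-values were adjusted over 9309 genes by Benjamini-Hochberg, and a call needed a fold change over 1.3 with an adjusted p below 0.05. DESeq2 1.42.0 was an alternative. On simulated counts for SP against NSP with 9309 genes, 200 of them changed, the fit recovered 56% of 2-fold and 88% of 4-fold changes, with 8 false calls among 152. The groups share replicate numbers. Deviations of same-numbered SP and NSP libraries from their group means had correlations of 0.383, 0.205, 0.323 and 0.323, all over 0.1. On this ground libraries of one number were treated as pairs in an alternative fit with the replicate block. Between libraries of different numbers the correlations ran from -0.279 to 0.126. The largest of these, of SP replicate 2 with NSP replicate 3, also passed 0.1. No replicates were taken as 1 library, since the chi-square per degree of freedom between libraries of one group was 5.70 to 13.2.

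Values in every library are given for the 12 members with the largest ratio, the 10 with the most counts, members on a gene list, up to 8 members by counts of their partner, members within 150 kb of another, and the 3 genes on either side of each limit. The kappa B and TATTTAT searches and the neighbours within 150 kb were chosen after the members were seen. Some genes that this rule names are not reported here. Libraries of other experiments of the study were not analysed here.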

Additional observations from a re-analysis of the deposited data

Results flagged for a closer look

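In 106 groups of 4 libraries examined for the named members and partners, 8 had 1 library that stood far from the other 3, measured as its gap to the nearest of them divided by the group's range. In groups not chosen by their values, chance flags about 1 in 20, which is 5.3 of 106. Most of these groups belong to members, which the rule chose by these same values, so 5.3 is no measure of chance here. Among SP libraries the gap was 0.942 of the range for CXCL8 in replicate 4, 0.949 for MCL1 in replicate 1, 0.846 for COL1A2 in replicate 2 and 0.854 for SPRTN in replicate 2, each the highest of its group. Among NSP libraries the gap was 0.869 for ATF3 in replicate 3, the highest, 0.868 for TNFAIP3 in replicate 2, the lowest, and 0.969 for TNKS1BP1 and 0.936 for HIF1A-AS1, both with replicate 1 the lowest. For ATF3 the high NSP library set the narrow gap to SP, and without the high SP library the ratio of mean SP to mean NSP CPM was 3.71 in place of 4.48 for COL1A2 and 1.76 in place of 2.90 for CXCL8.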

How the results depend on the processing

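The set of members follows its limits. With a ratio of 1.5 or 3 in place of 2, the rule gave 259 or 16 genes, with 50, 200 or 400 counts 124, 47 or 20, and without genes that have an exon across the other strand 46. TMM-normalized library sizes gave 66 genes (65 of them members), and DESeq2's size factors 65. Leaving out 1 library gave 73 to 100 genes, of which 56 to 73 were members and 16 to 27 were not. The fewest members, 56, were kept without SP replicate 3. A ratio taken within the pairs of the replicate block gave 113 genes, 78 of them members. In the test, genes called higher numbered 152 (69 to 164 with 1 library left out, 303 without a filter on low counts, 548 with the replicate block) and genes called lower 189 (89 to 181, 381 and 652). Members called numbered 61 (33 to 54 with 1 library left out and 80 with the replicate block). Partners called higher numbered 6 (2 to 6 with 1 library left out), and partners called lower 0 in every alternative run. PKMYT1's log2 fold change of 0.03 turned negative without SP replicate 2 (-0.092), SP replicate 3 (-0.033), NSP replicate 1 (-0.069) or NSP replicate 4 (-0.020), and was 0.136 without NSP replicate 3. The causes of these differences were not tested. Over 53 named genes and their alternatives, 679 of 778 values kept their direction and their side of the threshold. Of the rest, 73 no longer passed, 22 newly passed and 4 changed direction, all for PKMYT1, which is no member. Most of the 53 genes are members, whose direction was fixed by the rule, so their kept direction supports nothing. Low numbers of assigned reads limit the lowest members, 33 of which had under 200 counts in all. Counting on the other strand could not be tried with these files, so every value here carries that limit.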
